A study of Mus musculus with 11 samples.

Results

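Genes of RNA sensing, the interferon response and antigen presentation were followed in MLTC-1 cells, an established mouse Leydig tumor cell line (MLTCs), after transfection with RNA against Mamld1. The set was a list of 48 genes taken by symbol, of 17016 genes named on the array: 46 had a probe whose RefSeq accession led to the listed gene, with 64 probes between them, and Mx1 and Mx2 had none. Control cells received a non-targeting RNA (4611G) and the other groups received siRNA1 or siRNA2, each a different siRNA against Mamld1, all at 20 nM with the same transfection reagent, and total RNA was taken after 48 h. The labels name no hormone, but the study's methods take the array RNA from cells harvested along with the steroid measurements. For these, hCG, a gonadotropin that stimulates Leydig cells, was added to the medium after 48 h, and the medium was collected 1 h later. By the methods, then, all groups, controls included, had received hCG shortly before the harvest. There were 4 control, 4 siRNA1 and 3 siRNA2 arrays, each a 1-color hybridization of 1 sample, and neither the labels nor the methods used here say whether the samples of a group came from separate transfections, so the p-values measure the spread between these samples only. The methods describe 3 hybridizations, though control and siRNA1 had 4 arrays each, and do not say whether 1 RNA was hybridized repeatedly. All groups, the controls included, were transfected with an RNA, and cells without transfection were not analysed here.

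Double-stranded RNA in a cell is recognized by Toll-like receptor 3 in endosomes and by the helicases RIG-I (Ddx58) and MDA5 (Ifih1) in the cytoplasm. These receptors switch on interferon regulatory factors and NF-kappaB, which drive interferon beta, and interferon acting through its receptor and the STAT factors then raises a large set of interferon-stimulated genes, among them the immunoproteasome and the peptide transporter that feed MHC class I. Leydig cells, the steroid-producing cells of the testis, are known to mount such a response to viral RNA. The comparisons below asked how these genes stood in each knockdown against control cells, and whether the 2 siRNAs differed.

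Each array gave 45018 spots, of which 58.6 to 62.6% were well above background, and none was saturated. Mamld1 stood at a mean of 101% ± 17.1 (SD, n = 4) of the control level in control cells, 54.0% ± 15.4 (SD, n = 4) in siRNA1-transfected cells and 59.8% ± 12.6 (SD, n = 3) in siRNA2-transfected cells, and it was lower than control with both (log2 difference -0.93, adjusted p = 0.00571, and -0.77, adjusted p = 0.0309). These values rest on 1 dim probe, read at 14.3 to 38.1, where the lowest signal well above background was 6.94 to 8.90. They are therefore no close measure of the transcript that remained. By real-time PCR the study describes Mamld1 mRNA as markedly reduced with both siRNAs. All 7 Leydig markers examined, Cyp11a1 and Star among them, were well above background on all 11 arrays. Of the 7 macrophage markers with a probe, Cd14 was detected on all 11 arrays and Adgre1, Ptprc and Lyz2 on none, and the summed signal of the list was 63.4 to 78.3 in control, 84.3 to 154 in siRNA1 and 72.8 to 108 in siRNA2 cells. Endothelial markers summed to 401 to 502 in control, 968 to 1684 in siRNA1 and 688 to 979 in siRNA2 cells, with Cdh5 on all arrays and Tek and Kdr on none. Sertoli cell markers summed to 1342 to 1583, 1512 to 1896 and 2445 to 2598 in the same order, with Amh and Dhh on all arrays and Sox9 on none. Lymphocyte markers summed to 180 to 290 in control, 149 to 274 in siRNA1 and 194 to 247 in siRNA2 cells, and dendritic cell markers to 167 to 284, 166 to 277 and 217 to 241, with Ncr1 and Itgax on no array. All these sums are of unscaled signal. The 75th percentile was 470 to 582 on control, 601 to 774 on siRNA1 and 488 to 579 on siRNA2 arrays. Most of the endothelial sum came from Cdh5 and most of the Sertoli sum from Dhh, while Amh reached no adjusted p of 0.05 in limma. On siRNA1 replicate 1, a Csf1r probe that was well above background on no other array added 79.5 to the macrophage sum. The part of these markers in the differences below was not tested.

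Interferon beta and many of its best known target genes were at or under the limit of detection. A probe was tested only where all arrays of some group read it well above background, and 34 of the 46 genes had such a probe, each detected on all 11 arrays. The other 12 genes had none: the sensors Ddx58 and Tlr7, the 2'-5'-oligoadenylate synthetases and their relatives Oas1a, Oas2, Oas3, Oasl1 and Oasl2, interferon beta itself (Ifnb1), the interferon-stimulated genes Ifit1, Ifit3 and Ifi44, and the chemokine Ccl5. Of these, 9 genes were not well above background on any array in any group. The exceptions were Ddx58, with 1 array for each of 2 of its probes, Tlr7 with 3 arrays and Ifit3 with 1. The Ifnb1 probe read between 1.78 and 2.25 on the 11 arrays, where the lowest signal well above background was 6.94 to 8.90 and the median of the negative control spots 1.61 to 2.04. The Ifit1 probe, for a gene that interferon raises strongly, read 1.42 to 3.60. No fold is given for these 12 genes, since no group had a measured level throughout; whether the transcripts were absent or only under the limit of the array cannot be told apart.

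**Figure D1:**
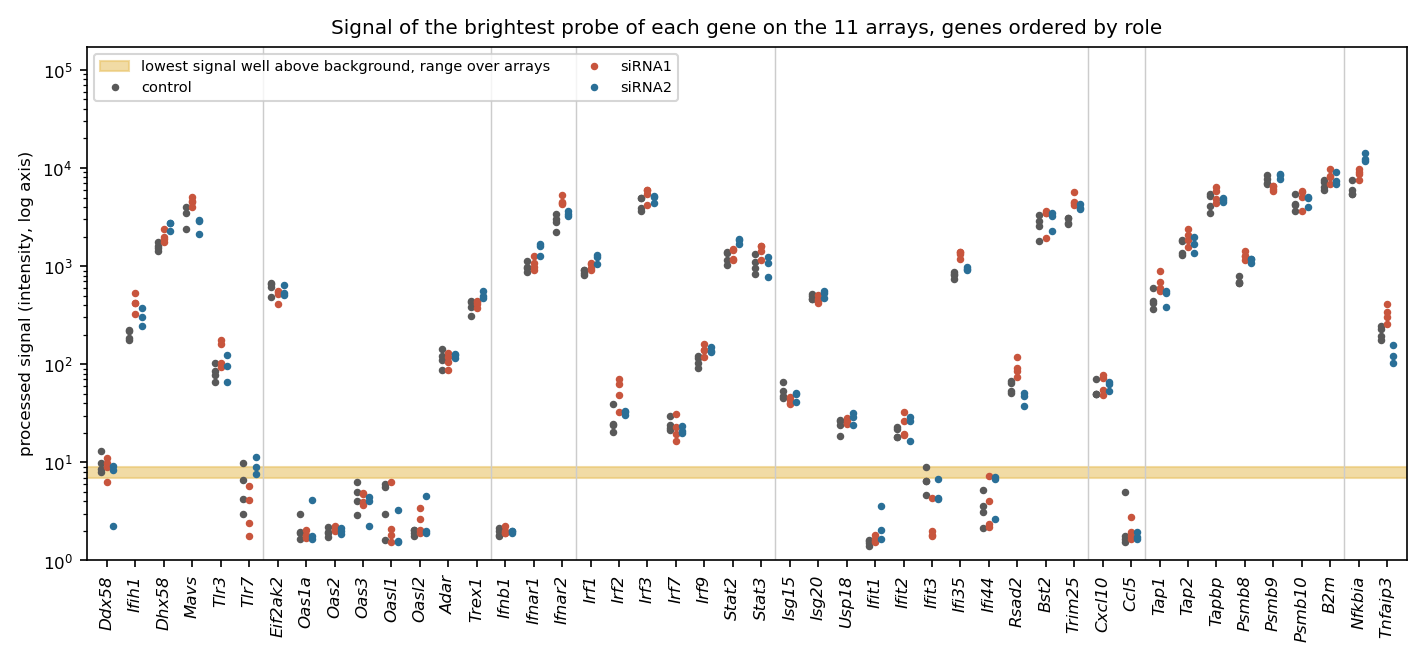
Processed signal (unscaled intensity, log axis) of the brightest probe of each of the 46 genes on the 4 control, 4 siRNA1 and 3 siRNA2 arrays; the band spans the lowest signals called well above background, 6.94 to 8.90. The Oas genes, Ifnb1, Ifit1 and Ccl5 lie in or under the band in all groups, and heights of different genes are not comparable because probes differ.

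In what follows, a level is the scaled signal as a percentage of the geometric mean over control arrays, the difference is on the log2 scale with its standard error, and a gene passed the test at an adjusted p of 0.05 or less in limma over all 24250 tested probes. Each gene is represented by its brightest tested probe. With siRNA1, 7 of the 34 tested genes were higher and 7 lower than control, 20.6% in each direction, where 10.6% of all 11818 tested genes were higher and 18.7% lower, 29.3% together. With siRNA2, 8 were higher and 2 lower, against 8.02% and 12.2% of all genes, 20.2% together. Between the siRNAs, 2 were higher and 10 lower with siRNA1, against 11.8% and 14.4% of all genes, 26.3% together. The median difference over the 34 genes was -0.04 with siRNA1, 0.09 with siRNA2 and -0.18 between siRNA1 and siRNA2, and the medians over all tested genes were -0.08, -0.02 and -0.07. Median absolute differences were 0.24, 0.19 and 0.25, near the 0.22, 0.18 and 0.22 of all genes. None of the 34 passed with a fold of at least 2 against control, where 3.05% and 2.42% of all genes did, and Tnfaip3 alone did so between the siRNAs, where 3.53% of all genes did. In total 20 of the 34 genes passed in at least 1 comparison, where 43.8% of all genes did. Every one of the 3 slides held all 3 groups, and the 36 passing differences had the same sign within each slide, as did 99.9% of the passing differences of all genes, which were chosen on the same arrays. The arrays of the 2 groups did not overlap for 11 genes with siRNA1, 11 with siRNA2 and 15 between the siRNAs, against 31.7%, 31.1% and 35.1% of all tested genes, and an exact two-sided permutation test of 4 against 4 or 3 arrays cannot go below p = 0.0286. The 2 comparisons with control share the control arrays, so their values are set side by side and only the direct comparison tests whether the siRNAs differed. The counts moved with the scaling. With siRNA1, 7 higher and 4 lower genes passed with quantile normalization, and 6 and 4 with median scaling. With siRNA2, median scaling left 4 higher and 1 lower.

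**Figure D2:**
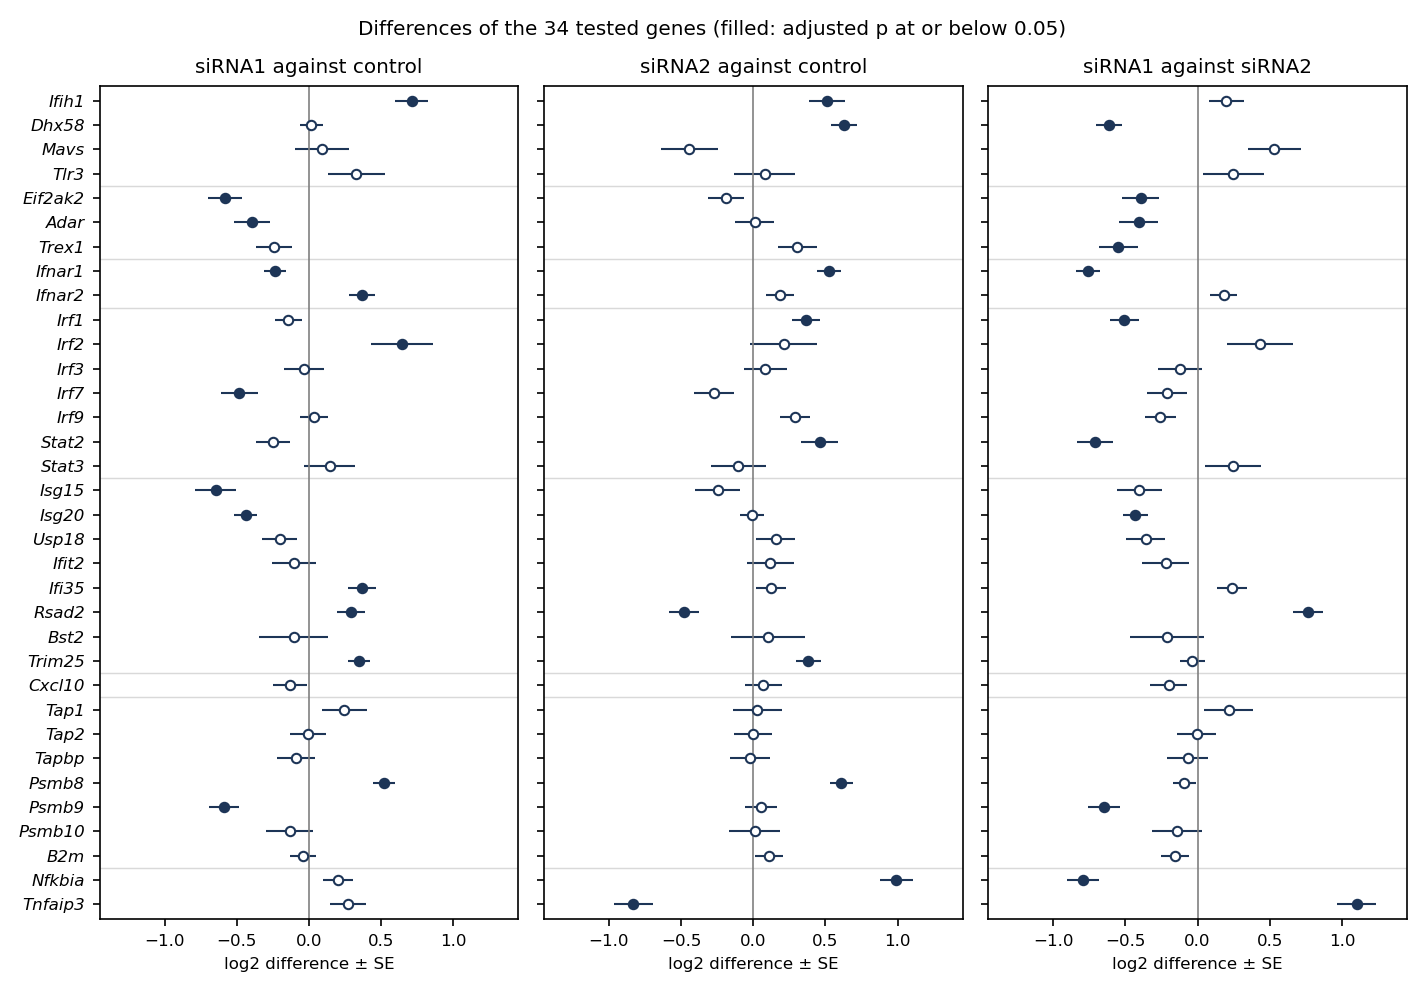
Log2 differences with standard errors for the 34 tested genes in the 3 comparisons, genes ordered by role with lines between roles; filled points passed the test. With siRNA1 7 genes passed on each side of 0, with siRNA2 8 passed above and 2 below, and between the siRNAs 2 above and 10 below.

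Among the RNA sensors, Ifih1 rose with both siRNAs and Dhx58 with siRNA2. Ifih1 stood at 110.1, 96.5, 98.5 and 95.6% on the control arrays, 173, 137, 175 and 173% on the siRNA1 arrays and 168, 133 and 129% on the siRNA2 arrays. All siRNA1 and siRNA2 arrays lay above all control arrays, and the knockdown groups overlapped each other. The difference was 0.71 ± 0.11 (adjusted p = 0.000936) with siRNA1 and 0.51 ± 0.12 (adjusted p = 0.0139) with siRNA2, and 0.20 ± 0.12 (adjusted p = 0.276) between them. The call with siRNA2 was lost under median scaling (adjusted p = 0.0518) and without siRNA2 replicate 1 (adjusted p = 0.0560). A dimmer Ifih1 probe was well above background on 0 control, 3 siRNA1 and 1 siRNA2 arrays and was not tested. Dhx58 encodes LGP2, the helicase without a signaling domain that modulates the other sensors. Dhx58 stood at 91.6, 111, 98.0 and 99.98% on the control arrays, 93.4, 108, 101 and 102% on the siRNA1 arrays and 156, 153 and 154% on the siRNA2 arrays. The siRNA2 arrays lay within a narrow band above all others, and the siRNA1 arrays overlapped the controls. Its difference was 0.02 ± 0.08 (adjusted p = 0.912) with siRNA1, 0.63 ± 0.09 (adjusted p = 0.000595) with siRNA2 and -0.61 ± 0.09 (adjusted p = 0.000505) between siRNA1 and siRNA2. The adaptor Mavs, through which the helicases signal, did not pass: 0.09 ± 0.19, adjusted p = 0.762 with siRNA1 and -0.44 ± 0.20, adjusted p = 0.163 with siRNA2, on 10 arrays because the spot of control replicate 3 was an outlier. Tlr3 did not pass either, with 0.33 ± 0.20, adjusted p = 0.251 and 0.08 ± 0.21, adjusted p = 0.862.

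The nucleic acid effectors were lower with siRNA1 than with siRNA2 for each of the 3 tested genes. Eif2ak2 encodes PKR, the kinase that double-stranded RNA activates to stop translation. Eif2ak2 stood at 103, 88.1, 96.5 and 115% on the control arrays, 77.2, 59.0, 60.6 and 72.3% on the siRNA1 arrays and 96.3, 79.1 and 88.6% on the siRNA2 arrays. Every siRNA1 array lay below every other array. The difference was -0.58 ± 0.12 (adjusted p = 0.00409) with siRNA1, -0.19 ± 0.13 (adjusted p = 0.372) with siRNA2 and -0.39 ± 0.13 (adjusted p = 0.0463) between the siRNAs, and that last call was lost in 16 of the 26 alternatives, median scaling among them (adjusted p = 0.155). Adar edits adenosines in double-stranded RNA. Adar stood at 97.8, 84.3, 112 and 109% on the control arrays, 64.4, 78.9, 76.0 and 86.2% on the siRNA1 arrays and 89.8, 98.9 and 115% on the siRNA2 arrays. With siRNA1 the difference was -0.40 ± 0.12 (adjusted p = 0.0358), with siRNA2 0.01 ± 0.13 (adjusted p = 0.972) and between the siRNAs -0.41 ± 0.13 (adjusted p = 0.0486). The siRNA1 call was lost in 14 of the 26 alternatives with its sign kept, quantile normalization (adjusted p = 0.0558) and median scaling (adjusted p = 0.102) among them, and the direct call in 17, up to an adjusted p of 0.188 for a left-out array, siRNA2 replicate 3. A second Adar probe gave 0.19, adjusted p = 0.247 with siRNA1 and 0.31, adjusted p = 0.0997 with siRNA2, so the probes disagreed, and the mean of both did not pass with siRNA1 (adjusted p = 0.453) or between the siRNAs (adjusted p = 0.0807). Trex1 is the exonuclease that clears cytoplasmic DNA. Trex1 stood at 99.5, 88.3, 99.7 and 114% on the control arrays, 79.8, 90.4, 75.3 and 93.5% on the siRNA1 arrays and 108, 115 and 151% on the siRNA2 arrays. Neither difference from control passed (-0.24 ± 0.13, adjusted p = 0.179 and 0.31 ± 0.14, adjusted p = 0.155), while siRNA1 was below siRNA2 by a difference of -0.55 ± 0.14 (adjusted p = 0.0130), a call lost without siRNA2 replicate 3 (adjusted p = 0.0566). With slide as a block, the siRNA1 difference of Trex1 from control also passed (adjusted p = 0.0402).

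Both chains of the type I interferon receptor passed with at least 1 siRNA. Ifnar1 stood at 99.1, 97.6, 101 and 102% on the control arrays, 83.4, 93.1, 85.9 and 78.2% on the siRNA1 arrays and 152, 144 and 136% on the siRNA2 arrays. Here the 3 groups did not overlap: siRNA2 lay above control and siRNA1 below it. The difference of Ifnar1 was -0.23 ± 0.08 (adjusted p = 0.0427) with siRNA1, 0.53 ± 0.08 (adjusted p = 0.00125) with siRNA2 and -0.76 ± 0.08 (adjusted p = 8.34e-05) between siRNA1 and siRNA2. The small decrease with siRNA1 was lost under both other scalings (adjusted p = 0.179 with median scaling and 0.0975 with quantile normalization) and in most fits that left out 1 array. Ifnar2 stood at 107, 85.3, 106 and 103% on the control arrays, 132, 129, 124 and 131% on the siRNA1 arrays and 107, 116 and 119% on the siRNA2 arrays. The siRNA1 arrays of Ifnar2 lay above all others. Its difference was 0.37 ± 0.09 (adjusted p = 0.0104) with siRNA1, 0.19 ± 0.10 (adjusted p = 0.222) with siRNA2 and 0.18 ± 0.10 (adjusted p = 0.208) between them. A second Ifnar2 probe gave -0.12, adjusted p = 0.459 with siRNA1, in the other direction, so the increase rests on 1 probe.

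Of the 7 transcription factors, all tested, Irf1 and Stat2 were higher with siRNA2, Irf2 higher and Irf7 lower with siRNA1. Irf1 is a factor that interferon gamma induces and that activates immunoproteasome and MHC genes. Irf1 stood at 105.2, 101, 86.9 and 109% on the control arrays, 92.1, 88.6, 82.5 and 100.1% on the siRNA1 arrays and 132, 126 and 128% on the siRNA2 arrays. Its siRNA2 arrays lay above all others. The differences were -0.14 ± 0.09 (adjusted p = 0.285), 0.36 ± 0.10 (adjusted p = 0.0253) and -0.51 ± 0.10 (adjusted p = 0.00346) for siRNA1, siRNA2 and siRNA1 against siRNA2. A second Irf1 probe gave 0.32, adjusted p = 0.0588 with siRNA2 and -0.31, adjusted p = 0.0551 between the siRNAs. The siRNA2 call of the brighter probe was lost under median scaling (adjusted p = 0.102) and without any 1 of the 3 siRNA2 arrays (adjusted p up to 0.0738, without replicate 1), while the direct comparison held in those settings. Stat2 acts with Irf9 in the complex that binds interferon-stimulated response elements. Stat2 stood at 94.9, 91.4, 100.2 and 115% on the control arrays, 79.1, 80.2, 79.8 and 99.3% on the siRNA1 arrays and 121, 136 and 158% on the siRNA2 arrays. The siRNA2 arrays lay above all siRNA1 and all control arrays. Stat2 differed from control by -0.25 ± 0.12 (adjusted p = 0.140) with siRNA1 and 0.46 ± 0.13 (adjusted p = 0.0261) with siRNA2, and by -0.71 ± 0.13 (adjusted p = 0.00194) between the siRNAs. Median scaling ended the siRNA2 call (adjusted p = 0.0718), as did leaving out siRNA2 replicate 3 (adjusted p = 0.106) or siRNA2 replicate 2 (adjusted p = 0.0726). It was also lost without control replicate 1, 2 or 3 (adjusted p = 0.0639, 0.0649 and 0.0550). The decrease with siRNA1 passed once slide entered as a block (adjusted p = 0.00775).

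Irf2, known as a repressor at interferon response elements, spread widely. Irf2 stood at 95.4, 85.0, 131 and 93.9% on the control arrays, 104, 159.9, 158 and 226% on the siRNA1 arrays and 114, 104 and 130.4% on the siRNA2 arrays. Control and siRNA1 arrays overlapped. The siRNA1 difference of 0.64 ± 0.21 (adjusted p = 0.0442) was lost when any of several single arrays was left out, for instance siRNA1 replicate 4 (adjusted p = 0.105), and the siRNA2 difference was 0.21 ± 0.23 (adjusted p = 0.620). Irf7, the factor that amplifies interferon production, was lower with siRNA1. Irf7 stood at 99.97, 96.8, 109 and 95.1% on the control arrays, 56.0, 68.9, 85.6 and 79.3% on the siRNA1 arrays and 73.6, 85.5 and 89.9% on the siRNA2 arrays. All knockdown arrays lay below all control arrays. The difference was -0.48 ± 0.13 (adjusted p = 0.0170) with siRNA1, -0.27 ± 0.14 (adjusted p = 0.217) with siRNA2 and -0.21 ± 0.14 (adjusted p = 0.318) between them, and the siRNA1 call was lost with median scaling (adjusted p = 0.0568) and quantile normalization (adjusted p = 0.0543). Irf3, the factor that the sensors activate directly, had the brightest probe among the factors. Irf3 stood at 91.1, 92.0, 102 and 117% on the control arrays, 79.9, 107, 92.1 and 115% on the siRNA1 arrays and 91.5, 104 and 125% on the siRNA2 arrays. Its groups overlapped, with -0.04 ± 0.14, adjusted p = 0.879 and 0.08 ± 0.15, adjusted p = 0.782. Irf9 and Stat3 did not pass in any comparison.

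**Figure D3:**
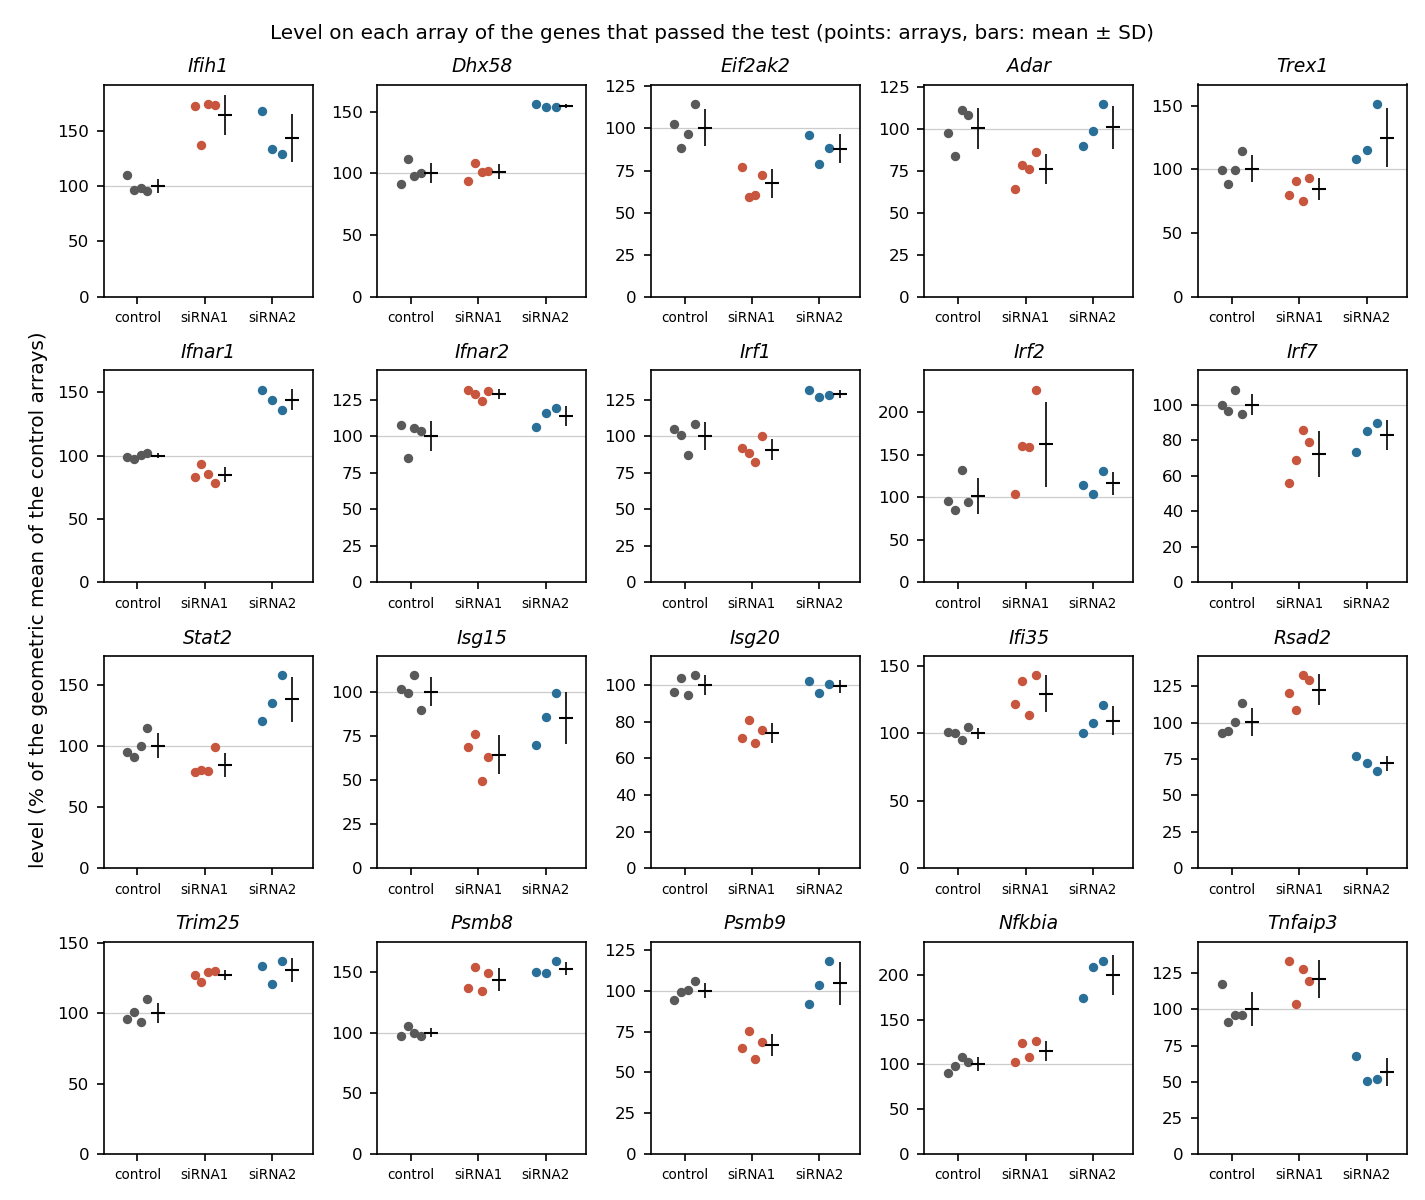
Level on each array of the 20 genes that passed in at least 1 comparison, as a percentage of the geometric mean over control arrays; points are arrays and black bars the mean ± SD of a group. Nfkbia reaches 174 to 216% and Tnfaip3 falls to 50.7 to 67.6% with siRNA2, all knockdown arrays of Psmb8 lie above its control arrays, and the siRNA1 arrays of Psmb9 and Isg20 lie below all others.

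Promoter letters are shown here for 3 interferon-stimulated members, picked by hand as examples. RefSeq promoter windows of 300 bases (GRCm38.p6, 250 before and 50 after the annotated start) were found for 40 of the 48 genes. The core of the interferon-stimulated response element, GAAA and GAAA with any 2 bases between them on either strand, stood in 14 of the 40 genes (35%) and in 3.99% of 27025 genes with a window. The STAT element core, TTC and GAA with any 3 bases between, stood in 12 of the 40 (30%) and in 9.55% of all, and the NF-kappaB core, GGGA and TTCC with any 2 bases between, a motif added after values had been seen, in 7 of the 40 (17.5%) and 1.63% of all. In Bst2 a response element overlapped a STAT element, and in Ifit2 a STAT element overlapped an NF-kappaB core. A match is only a run of letters and shows no binding. The 250 bases before the start are printed for Isg15 (chr4:156200819-156201068, minus strand), which was lower with siRNA1, for Rsad2 (chr12:26456453-26456702, minus strand), which was lower with siRNA2 than with siRNA1, and for Ifit1 (chr19:34640639-34640888, plus strand), which was not detected; capitals mark response element cores.
Isg15: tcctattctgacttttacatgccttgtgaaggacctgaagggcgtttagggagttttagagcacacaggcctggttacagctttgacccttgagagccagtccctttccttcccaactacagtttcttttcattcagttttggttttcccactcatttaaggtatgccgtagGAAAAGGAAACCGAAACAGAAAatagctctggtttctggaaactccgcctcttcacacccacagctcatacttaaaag
Rsad2: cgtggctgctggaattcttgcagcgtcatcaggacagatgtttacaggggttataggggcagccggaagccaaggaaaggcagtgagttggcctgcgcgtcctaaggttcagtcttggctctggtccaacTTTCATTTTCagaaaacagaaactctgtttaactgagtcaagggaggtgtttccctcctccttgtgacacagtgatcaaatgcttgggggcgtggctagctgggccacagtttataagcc
Ifit1: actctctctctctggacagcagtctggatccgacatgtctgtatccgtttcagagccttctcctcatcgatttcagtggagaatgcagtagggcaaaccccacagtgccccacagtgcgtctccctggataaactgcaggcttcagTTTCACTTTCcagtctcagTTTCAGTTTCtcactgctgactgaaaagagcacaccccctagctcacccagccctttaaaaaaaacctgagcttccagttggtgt
Isg15 holds 3 overlapping matches, Ifit1 holds 2 and Rsad2 holds 1. Of the 9 genes without a tested probe that have a window, 5 hold the core (Ddx58, Ifit1, Ifit3, Oas1a and Oas3), as do 9 of the 31 tested genes with a window. Those 9 did not move together: Ifih1, Irf2 and Rsad2 were higher and Eif2ak2 and Isg15 lower with siRNA1, Ifih1 and Stat2 were higher and Rsad2 lower with siRNA2, and B2m, Bst2 and Cxcl10 passed in no comparison.

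**Figure D4:**
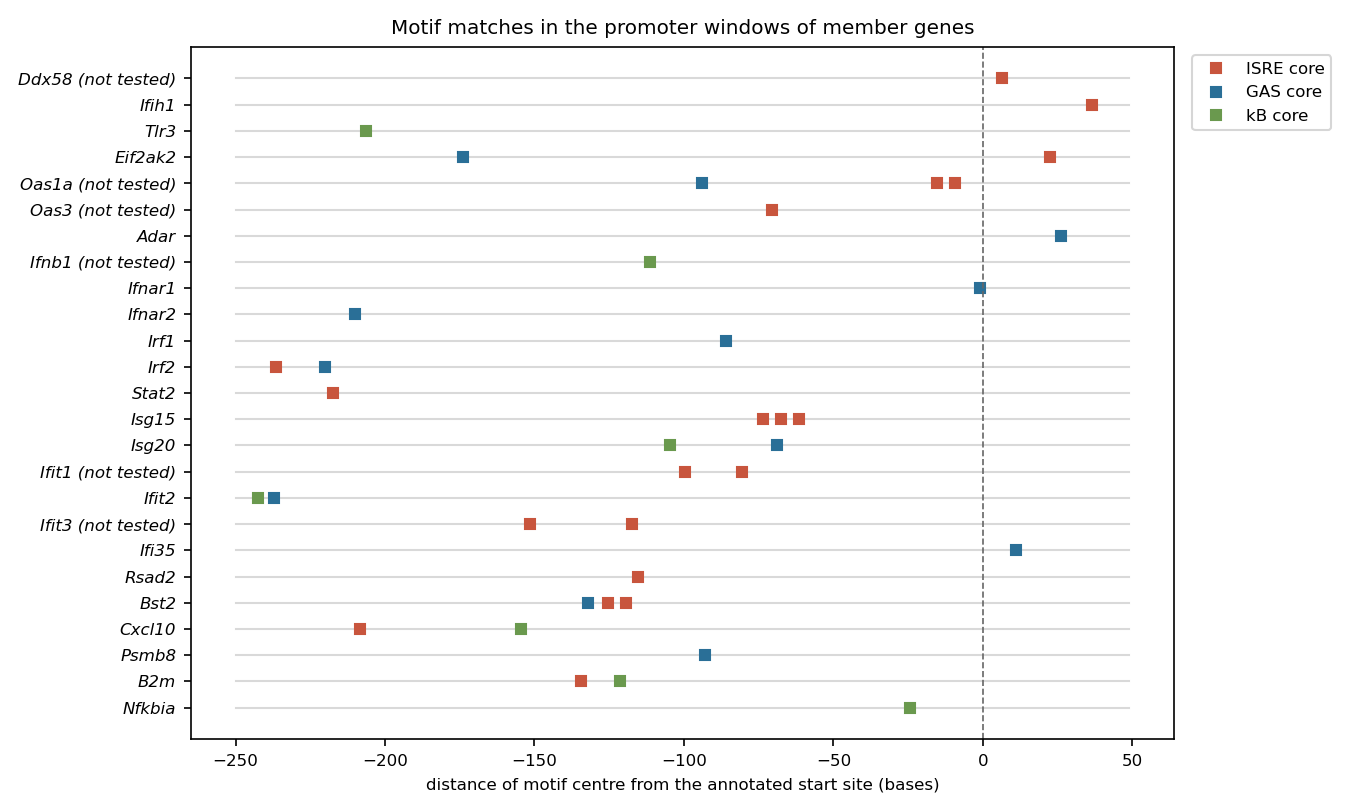
Positions of the 3 motifs relative to the annotated start site (0, dashed) in the promoter windows, from 250 bases before it to 49 after, of the 25 member genes with at least 1 match. Response element cores (ISRE) of Isg15, Rsad2, Ifit1, Ifit3 and Oas3 lie before the start, those of Ifih1, Ddx58 and Eif2ak2 after it.

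Interferon-stimulated effectors went both ways. Isg15, a ubiquitin-like protein conjugated to other proteins after interferon, was lower with siRNA1. Isg15 stood at 102, 99.6, 109.7 and 89.8% on the control arrays, 69.0, 76.2, 49.8 and 63.5% on the siRNA1 arrays and 69.97, 86.2 and 99.6% on the siRNA2 arrays. The siRNA1 arrays lay below all control arrays and overlapped the siRNA2 arrays. The difference was -0.65 ± 0.14 (adjusted p = 0.00691) with siRNA1, -0.25 ± 0.16 (adjusted p = 0.341) with siRNA2 and -0.40 ± 0.16 (adjusted p = 0.0893) between them. Isg20, an RNA exonuclease, showed the same side with siRNA1. Isg20 stood at 96.3, 104, 94.5 and 105.4% on the control arrays, 71.3, 80.8, 68.2 and 75.4% on the siRNA1 arrays and 102, 95.6 and 100.5% on the siRNA2 arrays. Every siRNA1 array lay below every other array, by -0.44 ± 0.08 (adjusted p = 0.00204) against control and -0.43 ± 0.09 (adjusted p = 0.00389) against siRNA2, while the siRNA2 difference from control was -0.01 ± 0.09 (adjusted p = 0.966). Its second probe gave -0.41, adjusted p = 0.0259 with siRNA1 and -0.48, adjusted p = 0.0187 between the siRNAs.

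Rsad2 encodes viperin, a radical SAM enzyme that makes an antiviral nucleotide. Rsad2 stood at 92.6, 94.4, 101 and 114% on the control arrays, 120.5, 109, 132 and 129% on the siRNA1 arrays and 77.0, 72.2 and 66.7% on the siRNA2 arrays. The siRNA2 arrays lay below all others, and siRNA1 and control arrays overlapped. Rsad2 differed from control by 0.29 ± 0.10 (adjusted p = 0.0460) with siRNA1 and -0.48 ± 0.10 (adjusted p = 0.00863) with siRNA2, and by 0.77 ± 0.10 (adjusted p = 0.000365) between siRNA1 and siRNA2. The increase with siRNA1 was lost in 18 of the 26 alternatives, slide as a block among them (adjusted p = 0.0514), and the decrease with siRNA2 under median scaling (adjusted p = 0.0516). The other 2 Rsad2 probes gave -0.43, adjusted p = 0.0193 and -0.38, adjusted p = 0.0650 with siRNA2, and 0.58, adjusted p = 0.00293 and 0.72, adjusted p = 0.00198 between the siRNAs. Cmpk2, a mitochondrial nucleotide kinase gene that lies 12664 bases from Rsad2 on chromosome 12, is described with the other pathway genes below.

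Ifi35 and Trim25 rose. Ifi35 is an interferon-induced leucine zipper protein. Ifi35 stood at 101, 99.9, 94.98 and 104.7% on the control arrays, 122, 139, 114 and 143% on the siRNA1 arrays and 100, 107 and 121% on the siRNA2 arrays. The siRNA1 arrays lay above all control arrays, with a difference of 0.37 ± 0.10 (adjusted p = 0.0157), and siRNA2 gave 0.13 ± 0.10 (adjusted p = 0.484). Trim25 is the ubiquitin ligase that activates RIG-I. Trim25 stood at 96.0, 101, 93.7 and 110.2% on the control arrays, 127, 122, 129 and 129.8% on the siRNA1 arrays and 134, 121 and 137% on the siRNA2 arrays. All knockdown arrays of Trim25 lay above all control arrays. The difference was 0.35 ± 0.08 (adjusted p = 0.00764) with siRNA1 and 0.38 ± 0.09 (adjusted p = 0.00962) with siRNA2, and -0.04 ± 0.09 (adjusted p = 0.806) between them. A second Trim25 probe passed with siRNA1 (0.43, adjusted p = 0.00577) and not with siRNA2 (0.22, adjusted p = 0.165), and the siRNA2 call was lost under median scaling (adjusted p = 0.0667). Usp18, which removes Isg15 from proteins, Ifit2 and the tetherin gene Bst2 passed in no comparison, their differences from control lying between -0.20 and 0.15. Cxcl10, the only tested chemokine and a strong target of interferon and NF-kappaB, did not pass. Cxcl10 stood at 91.6, 101, 114 and 94.4% on the control arrays, 84.5, 76.9, 96.0 and 112% on the siRNA1 arrays and 110.0, 103 and 102% on the siRNA2 arrays. Its groups overlapped, with -0.13 ± 0.12, adjusted p = 0.463 for siRNA1 and 0.07 ± 0.13, adjusted p = 0.784 for siRNA2.

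In antigen processing, 2 catalytic subunits of the immunoproteasome parted. Psmb8 and Psmb9 lie in the MHC region on chromosome 17 on either side of the peptide transporter gene Tap1, with 225 bases between Psmb9 and Tap1 and 969 between Tap1 and Psmb8. Psmb8 stood at 97.4, 105.3, 99.9 and 97.5% on the control arrays, 137, 154, 134 and 149% on the siRNA1 arrays and 149.7, 149 and 159% on the siRNA2 arrays. All knockdown arrays of Psmb8 lay above all control arrays. The difference was 0.52 ± 0.07 (adjusted p = 0.000467) with siRNA1 and 0.61 ± 0.08 (adjusted p = 0.000408) with siRNA2, and -0.09 ± 0.08 (adjusted p = 0.462) between the siRNAs. A second Psmb8 probe gave 0.45, adjusted p = 0.0207 and 0.60, adjusted p = 0.00984. Psmb9 stood at 94.5, 99.4, 100.2 and 106% on the control arrays, 65.2, 75.1, 58.5 and 68.3% on the siRNA1 arrays and 91.7, 104 and 118% on the siRNA2 arrays. For Psmb9 every siRNA1 array lay below every other array. Its difference was -0.59 ± 0.10 (adjusted p = 0.00160) with siRNA1, 0.06 ± 0.11 (adjusted p = 0.806) with siRNA2 and -0.64 ± 0.11 (adjusted p = 0.00158) between siRNA1 and siRNA2. The DNA between the divergent starts of Psmb9 and Tap1 (chr17:34187331-34187555, GRCm38.p6, plus strand, in the direction of Tap1) is shown because one of its 2 genes passed and the other did not; none of the 3 motifs is found in it, so it holds no capitals.
Psmb9-Tap1: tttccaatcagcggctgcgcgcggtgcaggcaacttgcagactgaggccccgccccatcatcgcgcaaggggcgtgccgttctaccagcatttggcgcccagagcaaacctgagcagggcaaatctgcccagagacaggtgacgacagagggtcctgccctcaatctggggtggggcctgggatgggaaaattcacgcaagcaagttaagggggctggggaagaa
Tap1 gave 0.24 ± 0.16, adjusted p = 0.284 with siRNA1 and 0.03 ± 0.17, adjusted p = 0.946 with siRNA2 and passed in no comparison, nor did its partner Tap2, the loading factor Tapbp, the third immunoproteasome subunit Psmb10 or the MHC class I light chain B2m. B2m stood at 107, 96.7, 98.8 and 97.5% on the control arrays, 100.4, 88.2, 96.3 and 104% on the siRNA1 arrays and 121, 96.6 and 107% on the siRNA2 arrays. B2m, whose probe was the brightest of this group, overlapped between the groups, with -0.04 ± 0.09, adjusted p = 0.760 and 0.11 ± 0.10, adjusted p = 0.522.

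The feedback genes of NF-kappaB had the largest differences of the set with siRNA2, in opposite directions. Nfkbia encodes the inhibitor that holds NF-kappaB in the cytoplasm and that NF-kappaB itself induces. Nfkbia stood at 90.3, 98.8, 109 and 103% on the control arrays, 103, 124, 108 and 126% on the siRNA1 arrays and 174, 209 and 216% on the siRNA2 arrays. The siRNA2 arrays lay above all others. The difference was 0.20 ± 0.10 (adjusted p = 0.188) with siRNA1, 0.99 ± 0.11 (adjusted p = 0.000154) with siRNA2 and -0.79 ± 0.11 (adjusted p = 0.000468) between siRNA1 and siRNA2. Within the 3 slides the siRNA2 difference from control was 1.07, 0.94 and 0.88. Tnfaip3 encodes A20, the ubiquitin-editing enzyme that ends NF-kappaB signaling. Tnfaip3 stood at 118, 91.6, 96.4 and 96.1% on the control arrays, 134, 104, 128 and 119.9% on the siRNA1 arrays and 67.6, 50.7 and 51.9% on the siRNA2 arrays. Its siRNA2 arrays lay below all others, and siRNA1 overlapped control. The difference was 0.27 ± 0.12 (adjusted p = 0.134) with siRNA1, -0.83 ± 0.13 (adjusted p = 0.00151) with siRNA2 and 1.103 ± 0.13 (adjusted p = 0.000179) between siRNA1 and siRNA2. Within the slides the siRNA2 difference of Tnfaip3 from control was -0.89, -0.93 and -0.62, and with slide as a block the siRNA1 difference passed as well (adjusted p = 0.0439). The 250 bases before the start of Nfkbia (chr12:55492648-55492897, GRCm38.p6, minus strand) hold 1 NF-kappaB core, in capitals; the sequence is shown because this gene had the largest difference from control in the set.
Nfkbia: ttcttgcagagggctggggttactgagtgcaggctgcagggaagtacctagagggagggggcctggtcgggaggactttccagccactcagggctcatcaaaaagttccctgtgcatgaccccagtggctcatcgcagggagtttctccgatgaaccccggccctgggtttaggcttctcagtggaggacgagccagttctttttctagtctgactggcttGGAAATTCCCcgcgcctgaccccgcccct
As with the other members, these values give transcript levels only.

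The wider pathway was read from a second list of 118 genes that are not members, of which 82 were tested. With siRNA1, 9 were higher and 18 lower, 10.98 and 21.95% beside 10.6 and 18.7% of all genes, with a median difference of -0.11 beside -0.08. With siRNA2, 9 were higher and 17 lower, 10.98 and 20.7% beside 8.02 and 12.2%, with a median of -0.03 beside -0.02. Between siRNA1 and siRNA2, 18 were higher and 16 lower, 21.95 and 19.5% beside 11.8 and 14.4%, with a median of -0.11 beside -0.07. By role with siRNA1, 2 of 18 sensing and signaling genes were higher and 6 lower, 3 and 1 of 16 ligand, receptor and JAK-STAT genes, 2 and 2 of 15 interferon-stimulated genes, 1 and 5 of 16 antigen presentation genes and 1 and 4 of 17 NF-kappaB genes. With siRNA2 the counts were 3 and 2, 2 and 4, 1 and 2, 0 and 6, and 3 and 3 in the same order. At an unadjusted p of 0.05 or less in limma, the siRNA2 counts were 5 and 4, 6 and 4, 1 and 2, 0 and 7, and 5 and 3. Those with siRNA1 were 3 and 7, 4 and 4, 5 and 3, 1 and 6, and 1 and 5. The share of all genes at that unadjusted threshold was not counted. The unadjusted counts therefore have nothing to be read against and are no result about any role. Past a fold of at least 2 with either siRNA were 7 of the 82 genes, all lower, where 4.92% of all genes passed by that rule, 3.71% lower and 1.24% higher. Among the 7 is Ifng, whose siRNA1 values were not well above background.

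Jak1, the kinase bound to the interferon receptor, was lower with siRNA2 alone. Jak1 stood at 89.2, 92.4, 107 and 114% on the control arrays, 109.8, 98.9, 111 and 119% on the siRNA1 arrays and 30.6, 33.0 and 34.2% on the siRNA2 arrays. The difference was 0.13 ± 0.10 (adjusted p = 0.365) with siRNA1, -1.62 ± 0.11 (adjusted p = 4.29e-06) with siRNA2 and 1.75 ± 0.11 (adjusted p = 2.00e-06) between siRNA1 and siRNA2, and a second probe gave -1.90, adjusted p = 8.39e-06 with siRNA2. Cmpk2, the neighbor of Rsad2, had the same side as it. Cmpk2 stood at 103, 101, 103 and 92.8% on the control arrays, 98.2, 95.7, 108 and 103% on the siRNA1 arrays and 43.8, 36.5 and 34% on the siRNA2 arrays. Its difference was 0.02 ± 0.09 (adjusted p = 0.909) with siRNA1, -1.40 ± 0.10 (adjusted p = 6.84e-06) with siRNA2 and 1.42 ± 0.10 (adjusted p = 4.47e-06) between them, and the second probe gave -1.21, adjusted p = 0.000321 with siRNA2. Ptpn11, a phosphatase of cytokine receptor signaling, had -1.05 ± 0.09 (adjusted p = 1.73e-05) with siRNA2 and -0.20 ± 0.08 (adjusted p = 0.0813) with siRNA1, and its second probe did not pass with siRNA2 (-0.93, adjusted p = 0.133). Canx, the chaperone of nascent MHC class I chains, had -1.08 ± 0.10 (adjusted p = 4.39e-05) with siRNA2 and 0.03 ± 0.09 (adjusted p = 0.865) with siRNA1, its other probes giving -0.54, adjusted p = 0.00450 and -0.40, adjusted p = 0.311 with siRNA2. Cd1d1, which presents lipids, had -1.43 ± 0.09 (adjusted p = 3.81e-06) with siRNA2 and -0.33 ± 0.09 (adjusted p = 0.0152) with siRNA1.

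Unc93b1, which carries the nucleic acid sensing Toll-like receptors to endosomes, was lower in both groups. Unc93b1 stood at 88.9, 93.9, 109 and 110.1% on the control arrays, 37.6, 51.7, 48.2 and 47.7% on the siRNA1 arrays and 29.7, 32.6 and 33.3% on the siRNA2 arrays. All knockdown arrays lay below all control arrays. The difference was -1.12 ± 0.11 (adjusted p = 4.68e-05) with siRNA1 and -1.65 ± 0.12 (adjusted p = 9.76e-06) with siRNA2, and 0.53 ± 0.12 (adjusted p = 0.00929) between siRNA1 and siRNA2. Unc93b1 is among the genes the study selected on these same arrays, so its direction is not independent evidence. Ifng, interferon gamma, was a dim probe, well above background on 4 control, 0 siRNA1 and 3 siRNA2 arrays. It entered the test only through the control and siRNA2 arrays. With siRNA1 it was at least 2.35-fold lower than in control, a bound set by the lowest signal well above background on each array. The adjusted p of 3.52e-05 in limma belongs to the measured values, which were not well above background with siRNA1, and does not test that bound. With siRNA2, Ifng gave -0.21 ± 0.15 (adjusted p = 0.390).

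**Figure D5:**
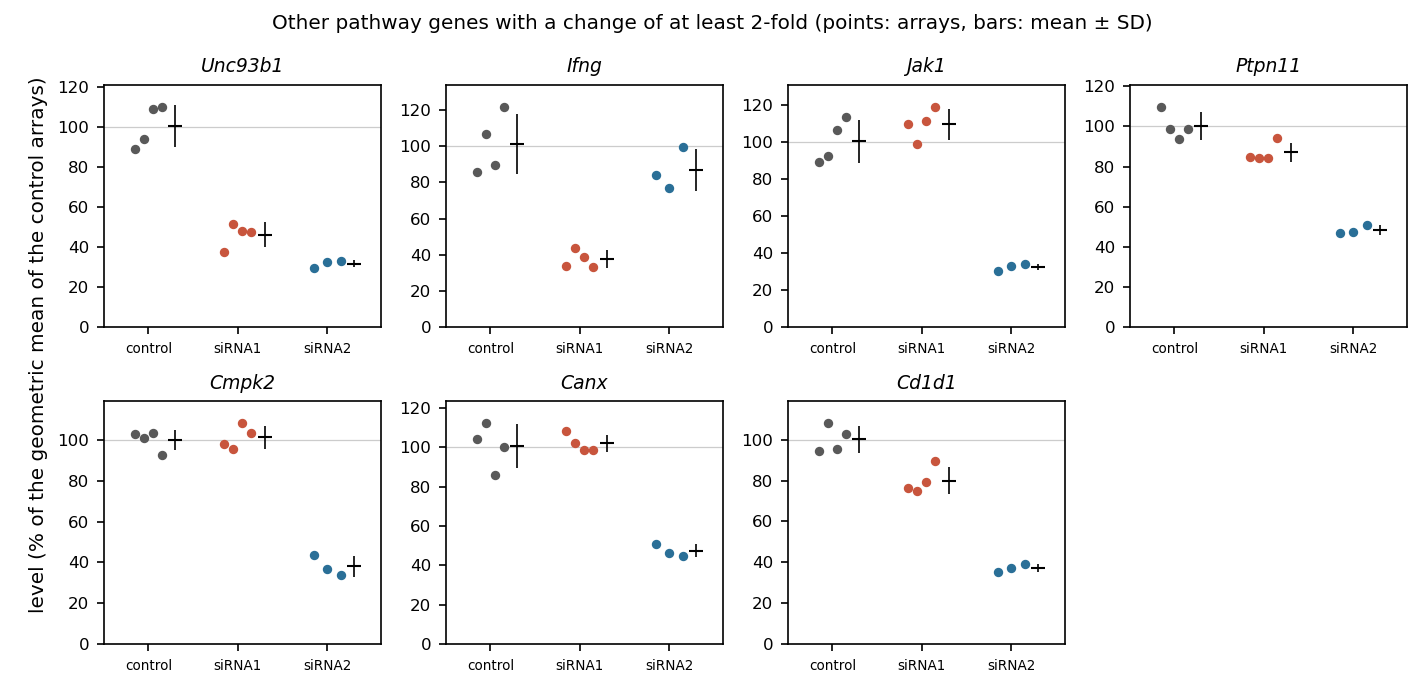
Level on each array of the 7 other pathway genes that passed with a fold of at least 2 with either siRNA, as a percentage of the geometric mean over control arrays; points are arrays and black bars the mean ± SD of a group. Jak1, Cmpk2, Canx, Ptpn11 and Cd1d1 fall with siRNA2 to between 30.6 and 51.1%, while Ifng, not well above background on any siRNA1 array, is shown at its measured values.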

How the data were processed

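RNA of 11 samples was labeled with Cy3 and hybridized to 1-color Agilent mouse arrays. The authors deposited scanner files of Feature Extraction 9.5.1.1, per the file headers, with background-subtracted signal intensity per spot, not normalized between arrays. Probes were named through their RefSeq accession. Signals were divided by the 75th percentile of each array and log2 transformed, control and outlier-marked spots were left out and spots of 1 probe averaged. Probes read well above background by all arrays of some group entered limma 3.58.1 (R 4.3.3; all 11 arrays, 3 groups), with Benjamini-Hochberg adjustment over 24250 probes in each comparison. A gene passed at an adjusted p of 0.05 or less. The number of arrays limits the precision. The methods' test, an unpaired t-test with a fold threshold of 2, was an alternative.

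The members and all gene lists were chosen with earlier results of these data known. Members that passed in any comparison and the brightest member of each role are given array by array; other pathway genes are named at a fold of at least 2 with either siRNA. The procedure was tested on simulated data: among 24170 probes it recovered 85% of changes of 1.0 on the log2 scale and 44% of changes of 0.5 with the siRNA1 design, and 76% and 30% with the siRNA2 design. In that simulation 100 probes were given each size of change, with noise drawn independently for each array. In the data 29.3% of genes passed with siRNA1 and 20.2% with siRNA2. Recovery depends on that share, so the simulated rates do not carry over to the reported tests. A deposited table of the authors' own selected genes, with their fold changes and p-values, was not used. A gene of the pathway list is counted in its totals but not reported here by name.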

Additional observations from a re-analysis of the deposited data

Results flagged for a closer look

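Within groups of 4 arrays, 46 sets of values from the 23 genes given array by array were examined for 1 array standing apart from the others, and 3 did by Dixon's criterion; chance marks about 1 in 20 such sets. Ifih1 stood at 137% on siRNA1 array 2, and the other siRNA1 arrays at 173 to 175%. Ifnar2 stood at 85.3% on control array 2, and the other control arrays at 103 to 107%. Stat2 stood at 99.3% on siRNA1 array 4, where the other siRNA1 arrays lay between 79.1 and 80.2%.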

How the results depend on the processing

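The main counts were 7 higher and 7 lower genes with siRNA1, 8 and 2 with siRNA2, and 2 and 10 for siRNA1 against siRNA2. In the same order, normexp background correction (offset 50) left 1, 0, 0, 0, 0 and 0. That correction was disturbed by a few extreme local backgrounds: the lower quartile of corrected signals was 556, 790 and 598 on siRNA1 replicates 2 and 4 and siRNA2 replicate 2, and 61.9 to 84.7 on the other arrays. With such local backgrounds set to the array median, an alternative chosen after seeing the data, the counts were 5, 6, 8, 2, 2 and 9. A fold of at least 2 beside the adjusted p left 0, 0, 0, 0, 1 and 0, as did the methods' t-test with that fold and no adjustment. Median scaling gave 4 lower with siRNA1 and 4 higher and 1 lower with siRNA2, quantile normalization 4 lower with siRNA1, and the methods' t-test with adjustment 5 higher with siRNA2. Leaving out 1 array at a time gave 5 to 6, 5 to 7, 6 to 9, 2 to 2, 2 to 3 and 7 to 11. Slide as a block gave 7, 9, 9, 3, 3 and 11. The other alternatives kept each count within 1.5 times of the main one.

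Same-numbered arrays of different groups had a median correlation of deviations of 0.298 (from -0.18 to 0.53, 10 pairs), and differently numbered arrays -0.102 (30 pairs). Arrays on the same slide had 0.301 (13 pairs) and on different slides -0.124 (27 pairs); the reported values come from a fit with no slide term. A best match with the same number was seen for 9 of 11 arrays. The numbers were not taken as pairs because the labels give them no shared origin. The lowest same-numbered pair was below 0, but the median and the best matches leaned toward shared numbers. These correlations therefore do not show that the arrays were unpaired. With the replicate block the counts were 8, 8, 9, 2, 2 and 11.

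Over the differences of the 23 genes, 1538 values under alternatives stayed on the same side of the threshold and of 0, 208 no longer passed, 7 newly passed and 41 changed sign. The 208 include calls lost only because a rule also asked for a fold of 2. The sign changed with normexp for siRNA1 in Dhx58 (-0.19), Adar (0.35), Irf7 (0.70), Isg15 (0.52), Nfkbia (-0.12) and Cxcl10 (0.69), for siRNA2 in Ifnar2 (-0.00788), Irf7 (0.48), Isg15 (0.42), Rsad2 (0.21), Psmb9 (-0.18), Irf3 (-0.0645) and B2m (-0.0976), and between the siRNAs in Irf7 (0.22), Isg15 (0.0955) and Cxcl10 (0.13). With the extreme backgrounds replaced it changed for Adar with siRNA2 (-0.000290) and Irf3 with siRNA1 (0.0572), and the siRNA1 calls of Irf2 (0.08, adjusted p = 0.586) and Rsad2 (0.04, adjusted p = 0.699) were lost. The slide block changed Adar with siRNA2 (-0.0367), the replicate block Isg20 with siRNA2 (0.00926). The mean of all probes changed Ifnar2 (-0.11) and Trim25 (0.0865) between the siRNAs, Isg20 with siRNA2 (0.0333) and B2m with siRNA1 (0.0313). Median scaling changed Trim25 between the siRNAs (0.00448) and Irf3 with siRNA1 (0.00616), and quantile normalization Irf3 (0.0222) and B2m (0.0192) with siRNA1. Leaving out 1 array gave ranges across 0 for Dhx58 with siRNA1 (-0.0265 to 0.0679), Adar with siRNA2 (-0.0852 to 0.0943), Isg20 with siRNA2 (-0.0360 to 0.0195), Trim25 between the siRNAs (-0.0910 to 0.000719), Psmb9 with siRNA2 (-0.0371 to 0.146), Irf3 with siRNA1 (-0.116 to 0.0588) and siRNA2 (-0.0334 to 0.190) and B2m with siRNA1 (-0.0765 to 0.000905). Apart from normexp and the rules asking for a fold of 2, the passing differences of Psmb8, Nfkbia and Tnfaip3 and the direct differences of Dhx58, Ifnar1, Stat2, Irf1, Isg20, Rsad2 and Psmb9 kept their calls in all alternatives. The same held for Ifih1, Eif2ak2, Isg15, Isg20, Ifi35, Trim25 and Psmb9 with siRNA1 and for Dhx58 and Ifnar1 with siRNA2. Signal near background limits the 12 untested genes, Ifng and the dimmer probes.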

Other observations

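Other genes of the pathway list, chosen here after their values had been seen, moved in ways that the fold rule left out. Icam1, an adhesion molecule that NF-kappaB induces, gave -0.86 ± 0.08 (adjusted p = 1.72e-05) with siRNA1, 0.54 ± 0.08 (adjusted p = 0.000957) with siRNA2 and -1.41 ± 0.08 (adjusted p = 1.60e-06) between them. Il6, the cytokine gene, gave 0.17 ± 0.16 (adjusted p = 0.5004), -0.996 ± 0.18 (adjusted p = 0.00257) and 1.16 ± 0.18 (adjusted p = 0.000729) in the same order. Parp12, an interferon-stimulated gene, gave 0.98 ± 0.17 (adjusted p = 0.00153) with siRNA1 and 0.32 ± 0.18 (adjusted p = 0.281) with siRNA2, and Trim21, a cytoplasmic antibody receptor, 0.31 ± 0.11 (adjusted p = 0.0657) and 0.87 ± 0.12 (adjusted p = 0.000587).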
